A study of Drosophila melanogaster with 29 samples.

Results

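The accessory glands are paired organs of the male reproductive tract that secrete most of the protein of the seminal fluid. Their secreted proteins, the Acps, pass to the female at mating, where members of the group act on egg laying, receptivity, sperm storage and sperm competition. The transcripts are made in the gland, so in whole flies they are a readout of that male tissue. The 9 genes described here are Acp29AB, Acp32CD, Acp36DE, Acp53C14a, Acp53Ea, Acp62F, Acp63F, Acp76A and Acp95EF. They were taken as every probe set of the adult arrays whose only gene symbol is one of these names, which gave 1 probe set per gene, so 9 of the 13966 probe sets tested.

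The study concerned menin, the Drosophila homologue of the product of the human tumour suppressor gene MEN1, encoded in the fly by Mnn1. Whole adult Drosophila melanogaster, 3 to 5 days after eclosion and grown at 25 °C, were profiled on 11 single-channel arrays, 6 of females and 5 of males. The female arrays held wt flies (1 array), a control of the allele pair X113_X84 (1), heterozygotes X113_Y79 and X84_X46 (1 each) and mnn- flies X46_Y79 and Y79_X46 (1 each). The male arrays held wt (1), control X113_X84 (1) and mnn- X46_Y79, Y79_X46 and Y79_Y79 (1 each). Per the titles, mnn- flies carry a pair of mutant alleles of Mnn1; the labels describe the alleles as protein-null and do not say what X113 and X84 are or which parent gave which allele. A free-text description calls all 11 samples homozygous null, which goes against the titles, and the titles were used. No genetic background of the wt flies is given, and with at most 1 array for each stock in each sex, strain and genotype cannot be told apart. Wt and control were pooled as non-mutant, 2 arrays in each sex. No label says that arrays of a group came from separate cultures, so p-values measure only the spread between these arrays.

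The 1 probe set for Mnn1 itself read 5.515 in wt and 5.40 in control males, and 5.504, 5.41 and 5.17 in mnn- males X46_Y79, Y79_X46 and Y79_Y79. The difference between the male groups was -0.09 ± 0.14 by limma (adjusted p = 0.936), so the genotype labels found no check in this transcript. In females it read 5.63 in wt, 5.75 in control, and 6.17 and 5.91 in mnn- X46_Y79 and Y79_X46. Where the probes lie relative to the mutations is not given in the sources used here. Transcripts of the other sex stood out on a pair of arrays. On the wt male array, 13 of 13 yolk, eggshell and germ-plasm probe sets were above the median of the other 4 males, by 0.58 to 4.29 log2 units. Their summed intensity on a linear scale was 15533, against 1402 to 1507 on the other male arrays and 29297 to 76147 on the female arrays, and none of them was at 0. On the heterozygous female array X113_Y79, transcripts of the male tract were raised, as described below. The main counts and the values of the 9 genes in males are given with and without the array concerned. Without the wt male the non-mutant male group is 1 array, the control male, which is then assumed to vary like the other groups.

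All 9 genes were far higher in males than in females. In non-mutant flies the difference was largest on the log2 scale for Acp95EF (7.95 ± 0.44, SE of the limma fit, 2 arrays against 2, adjusted p = 1.1e-07) and smallest for Acp29AB (2.34 ± 0.32, adjusted p = 9.14e-05). In mnn- flies the same genes stood at the ends, with 7.29 ± 0.40 for Acp95EF (3 arrays against 2, adjusted p = 5.84e-08) and 1.56 ± 0.29 for Acp29AB (adjusted p = 6.97e-04). The count of genes higher in males was 9 of 9 in both backgrounds, by limma with Benjamini-Hochberg adjustment over all probe sets and a threshold of 0.05. Sex differences were common on these arrays: 24.7% of all probe sets were higher in non-mutant males and 28.1% in mnn- males. The sizes were less common, with a median difference over the 9 of 5.14 in non-mutant and 4.82 in mnn- flies, against 0.02 and 0.04 over all probe sets. Every male array lay above every female array for each of the 9, as did 25.6% of all probe sets. Without the wt male the count stayed at 9 of 9 in non-mutant flies (background 23.3%), with a median of 5.67, and without the heterozygous female X113_Y79 it was also 9 of 9 (background 24.2%).

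**Figure D1:**
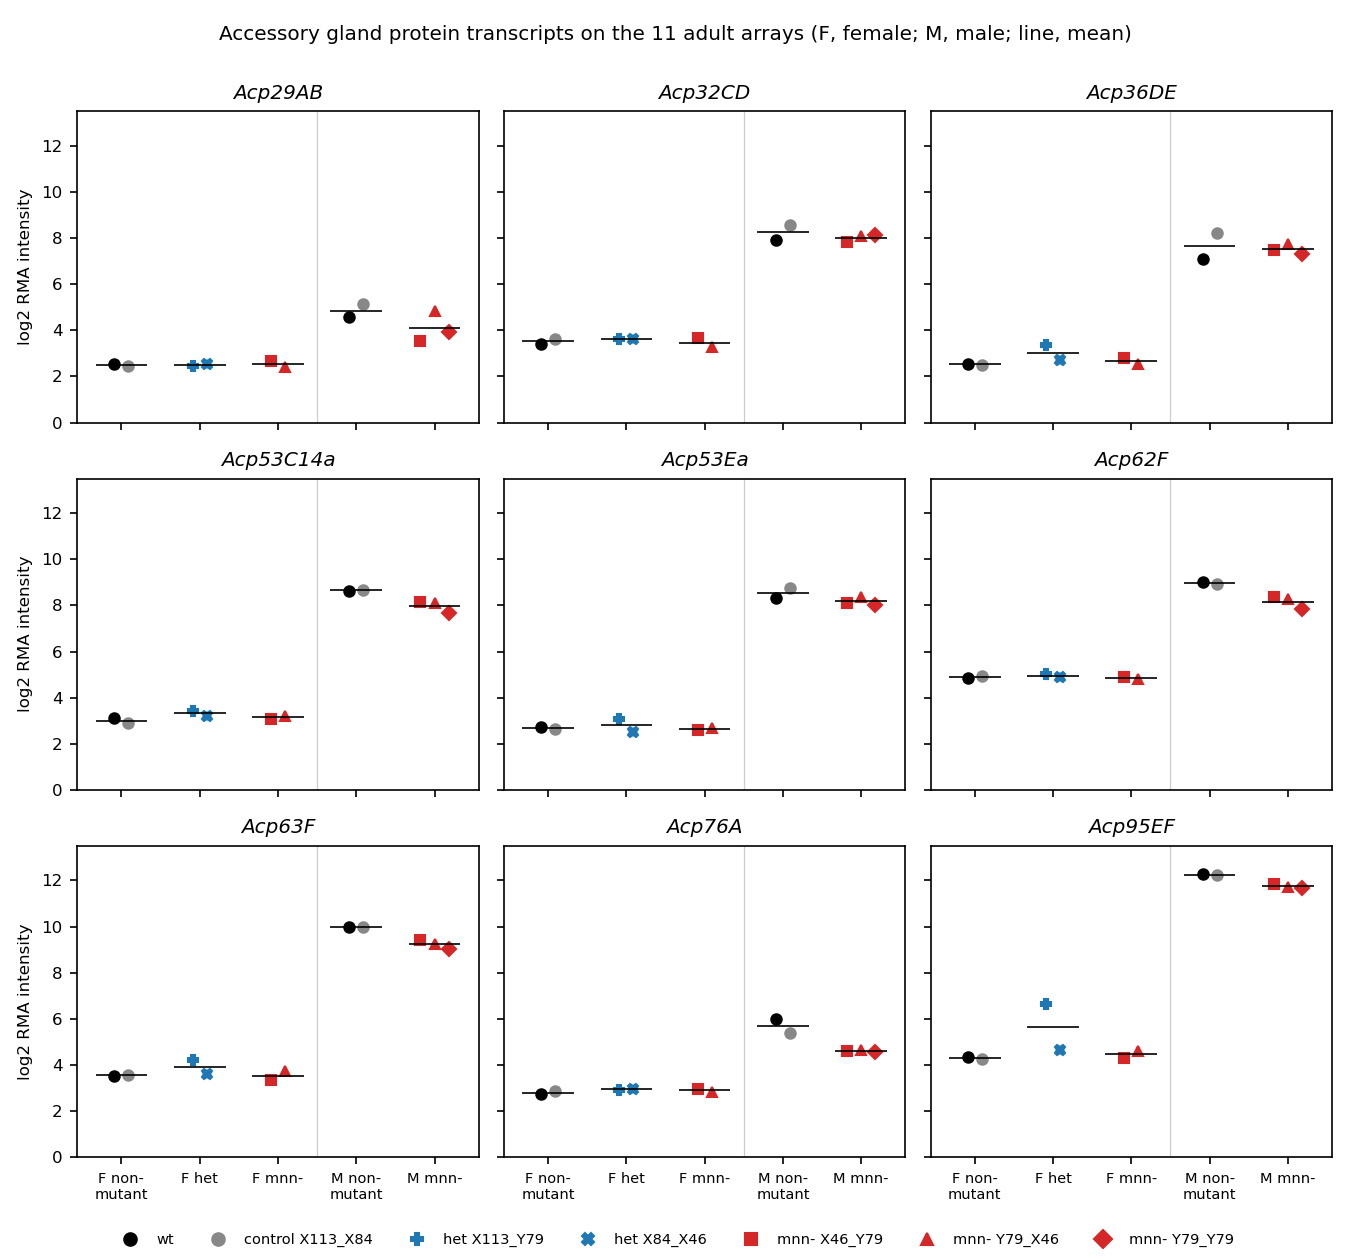
Log2 RMA intensity of the 9 accessory gland protein genes (1 panel each) on the 11 adult arrays, with female groups to the left of the grey line and male groups to the right; each point is an array and each horizontal line a group mean. Males lie above females in every panel, mnn- males lie close together for Acp76A, and the heterozygous female X113_Y79 lies above the other females for Acp95EF, at 6.64.

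The question of the male comparison was whether flies without Mnn1 differ in these transcripts. All 9 were lower in the mean of the 3 mnn- males than in the mean of the 2 non-mutant males, with differences from -1.07 to -0.15 log2 units, but 0 passed the threshold. By limma 5 of 9 had an unadjusted p under 0.05, against 1184 of 13966 probe sets, and 0.0286% of all probe sets were called lower. The median difference over the 9 was -0.68, against 0.00 over all probe sets, of which 51.3% were below 0. For 5 of the 9 every mnn- male lay below every non-mutant male, which held for 10.5% of all probe sets. In whole flies, fewer gland cells and less RNA per cell cannot be told apart.

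The protease inhibitors came first in the order of p. Acp76A encodes a serpin, a family of protease inhibitors. Its log2 intensity was 5.98 in the wt male, 5.37 in the control male, and 4.59, 4.64 and 4.58 in mnn- males X46_Y79, Y79_X46 and Y79_Y79. The mnn- values lay within 0.06 of each other and did not overlap with the non-mutant ones, which were 0.62 apart. On the male arrays this probe set lay at percentiles 28.8 to 61.9 of brightness, and dim RMA values keep background. The difference was -1.07 ± 0.15, a 2.10-fold lower level, with a 95% interval from -1.40 to -0.75 and adjusted p = 0.05003, just above the threshold of 0.05. Without the wt male, so against the control male alone, it was -0.77 ± 0.11 and passed (adjusted p = 0.0221), where 0.215% of all probe sets were called lower. With all arrays except a single mnn- or female array, the adjusted p ran up to 0.142, and with the 5 males alone it was 0.457.

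Acp62F encodes a trypsin inhibitor of the seminal fluid. It read 9.03 in wt and 8.94 in control, and 8.37 in X46_Y79, 8.26 in Y79_X46 and 7.84 in Y79_Y79. The non-mutant arrays were 0.085 apart, and every mnn- male lay below them. The difference was -0.83 ± 0.14 (1.77-fold lower, 95% interval from -1.13 to -0.52, adjusted p = 0.118), and it was -0.78 without the wt male (adjusted p = 0.0806).

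Acp36DE and Acp29AB act in sperm storage: Acp36DE is a large glycoprotein that sperm need to be stored efficiently in the mated female, and Acp29AB is a C-type lectin. Acp36DE read 7.11 in wt and 8.21 in control, and 7.50, 7.73 and 7.29 in X46_Y79, Y79_X46 and Y79_Y79. All 3 mnn- values fell between the non-mutant ones, so the groups overlapped, and the difference of -0.15 ± 0.28 did not pass (95% interval from -0.77 to 0.47, adjusted p = 0.954). Against the control male alone, without the wt male, the difference was -0.70 ± 0.23 (adjusted p = 0.188), and against the wt male alone, without the control male, it was 0.40. Acp29AB read 4.57 in wt and 5.13 in control, and 3.55, 4.82 and 3.93 in the same 3 mnn- males. It was dim in males too, at percentiles 11.2 to 41.7 of brightness. It varied most within mnn- males of the 9 genes (SD 0.65, n = 3), and the Y79_X46 male lay between the non-mutant arrays. Its difference was -0.75 ± 0.29 (adjusted p = 0.513), and without the wt male -1.03 ± 0.35 (adjusted p = 0.201).

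Acp53C14a and Acp53Ea belong to a cluster of related genes, with 1 other protein-coding gene, Acp53C14b, between them on the Release 6 assembly. Acp53C14a read 8.63 in wt and 8.67 in control, and 8.14, 8.10 and 7.68 in X46_Y79, Y79_X46 and Y79_Y79. The groups did not overlap, and the difference was -0.68 ± 0.14 (95% interval from -0.98 to -0.37, adjusted p = 0.146), or -0.70 without the wt male (adjusted p = 0.106). Acp53Ea read 8.33 in wt and 8.74 in control, and 8.11, 8.37 and 8.03 in the same mnn- males. There the Y79_X46 male lay above the wt male, and the difference was -0.36 ± 0.17 (95% interval from -0.75 to 0.02, adjusted p = 0.629). It was -0.57 ± 0.20 without the wt male (adjusted p = 0.212). Acp53C14b, which shares no probe set with them, was 5.15 higher in non-mutant males than females (adjusted p = 1.79e-08) and stood at -0.58 in mnn- against non-mutant males (adjusted p = 0.454).

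The remaining 3 genes encode further secreted products of the gland. Acp63F read 9.97 in both wt and control, and 9.41, 9.23 and 9.05 in X46_Y79, Y79_X46 and Y79_Y79. The non-mutant arrays differed by 0.003, the groups did not overlap, and the difference was -0.74 ± 0.17 (adjusted p = 0.214), and -0.74 without the wt male (adjusted p = 0.162). Acp95EF read 12.26 in wt and 12.25 in control, and 11.86, 11.73 and 11.66 in the same mnn- males. These groups did not overlap either, and the difference was -0.50 ± 0.40 (adjusted p = 0.832), and -0.50 without the wt male (adjusted p = 0.724). Its standard error came mostly from females: without the heterozygous female X113_Y79 it dropped to 0.11, with the same difference and adjusted p = 0.228, and 0.0215% of all probe sets were called lower in that fit. Acp32CD read 7.91 in wt and 8.58 in control, and 7.84, 8.09 and 8.12 in X46_Y79, Y79_X46 and Y79_Y79. The Y79_X46 and Y79_Y79 males lay between the non-mutant arrays, and the difference was -0.23 ± 0.18 (adjusted p = 0.829). It was -0.56 ± 0.16 without the wt male (adjusted p = 0.144).

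**Figure D2:**
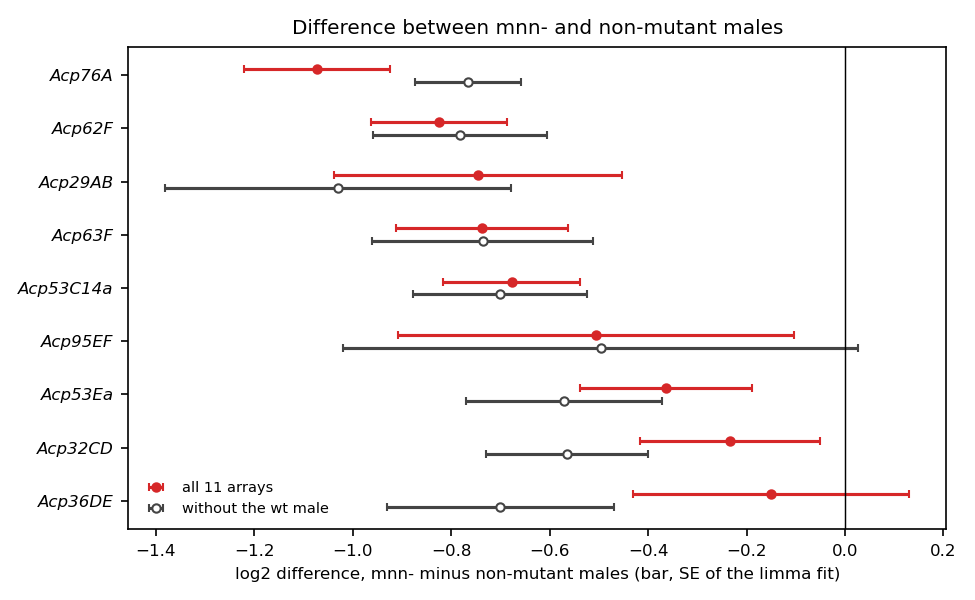
Log2 difference between mnn- and non-mutant males for each of the 9 genes (filled points, all 11 arrays in the fit) and the same without the wt male array (open points); bars are the standard errors of the limma fit. All 9 filled points lie below 0, from -1.07 for Acp76A to -0.15 for Acp36DE, and the open points lie between -1.03 and -0.50.

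The comparison depended on which non-mutant array was used. The control male was above the wt male for 5 of the 9 genes, against 41.3% of all probe sets. In a fit with wt and control as separate levels, which takes the spread of these single arrays from the other groups, 0 of the 9 differed by limma and 3 had an unadjusted p under 0.05, against 2.41% of all probe sets called and 2380 at an unadjusted p under 0.05. The control minus wt difference was 1.10 ± 0.29 for Acp36DE (adjusted p = 0.0832), 0.66 ± 0.20 for Acp32CD (adjusted p = 0.121) and -0.61 ± 0.14 for Acp76A (adjusted p = 0.0525). It was 0.57 for Acp29AB and 0.41 for Acp53Ea. The other 4 genes were within 0.09 of each other on these arrays. The median absolute difference was 0.41 over the 9 genes and 0.18 over all probe sets. Against the control male alone, 9 of 9 genes were lower on every mnn- array, as were 27.5% of all probe sets, and 1 (Acp76A) was called. The fit without the wt male gave a median of -0.70, against 0.02 over all probe sets, with 9 of 9 below 0 against 44.7% of all. Female transcripts moved with this comparison. In mnn- against non-mutant males the 13 yolk, eggshell and germ-plasm probe sets were all below 0 with a median of -1.49, and without the wt male 4 of 13 were below 0 with a median of 0.07. The part of the female transcripts on the wt male array in these values was not tested.

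Among the mnn- males, Y79_Y79 was compared with the X46_Y79 and Y79_X46 pairs. The difference was below 0 for 8 of the 9 genes, against 52.9% of all probe sets, and Y79_Y79 was the lowest of the 3 mnn- males for 7, against 35%. However, 0 of 9 passed by limma and 2 had an unadjusted p under 0.05, against 444 of 13966 probe sets (0.0358% called in either direction). Those 2 were Acp62F at -0.47 ± 0.13 (95% interval from -0.75 to -0.19) and Acp53C14a at -0.43 ± 0.14 (95% interval from -0.74 to -0.12), both with adjusted p of 1.00. The lone Y79_Y79 array is assumed to vary like the other groups in this fit. Acp76A was at -0.04 ± 0.21 and Acp32CD at 0.16 ± 0.25, the only one above 0. The X46_Y79 and Y79_X46 males, whose difference was not tested, were farthest apart for Acp29AB, where X46_Y79 minus Y79_X46 was -1.27. For the other 8 genes that difference ran from -0.26 to 0.19, and 4 of the 9 were above 0.

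**Figure D3:**
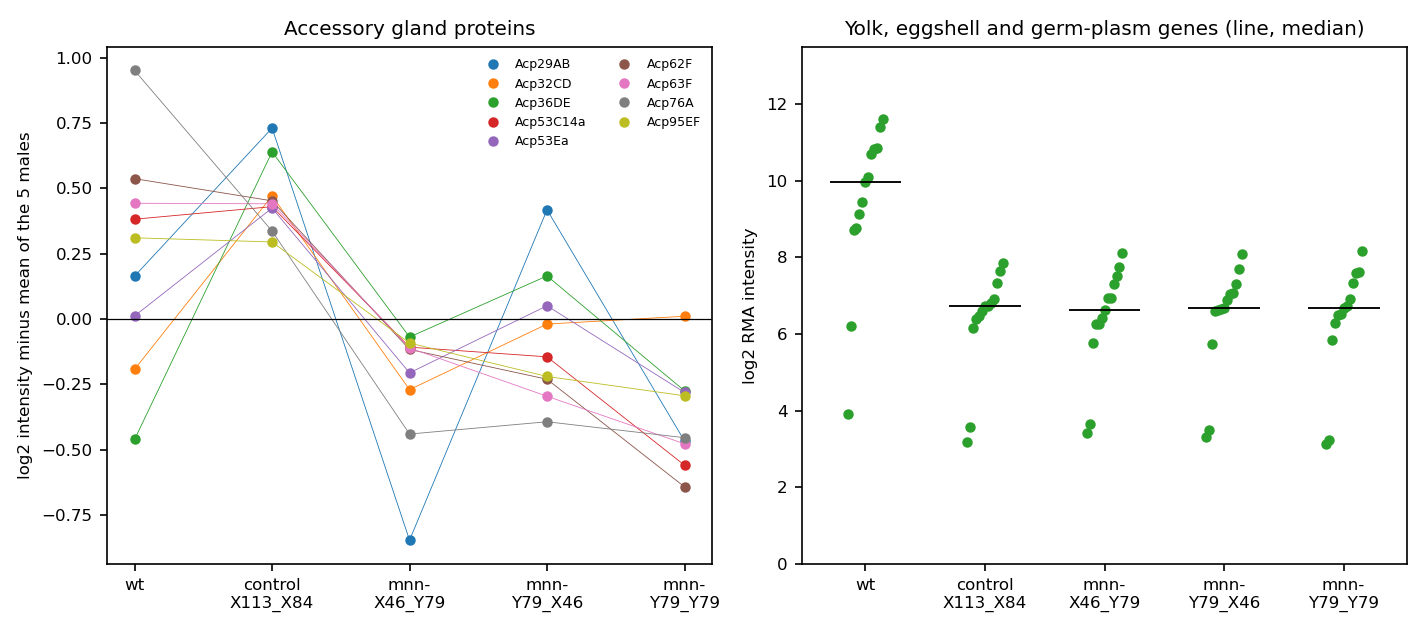
Left, log2 intensity of the 9 genes on each male array after subtracting the mean of that gene over the 5 males, with thin lines joining the values of a gene; right, log2 intensity of 13 yolk, eggshell and germ-plasm probe sets on the same arrays, with their median. The wt and control arrays differ most for Acp36DE, Acp32CD and Acp76A on the left, and the median on the right is 9.97 in wt against 6.62 to 6.72 on the other arrays.

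The patterns of the 9 genes over the 5 male arrays were compared in pairs. Acp53C14a, Acp62F and Acp63F followed each other most closely, with root mean square differences between centred profiles of 0.08 to 0.09 log2 units, against a median of 0.36 over the 36 pairs of genes. Acp95EF was next, at 0.13 from Acp63F. Acp36DE and Acp76A were the least alike, at 0.72. The neighbouring genes Acp53C14a and Acp53Ea were 0.23 apart, the tenth smallest of the 36 values (rank 10).

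Other genes with the most similar pattern were found by the same measure against the mean profile of the 9. Over all 11 arrays the nearest of 12434 probe sets was Acp53C14b (0.17 log2 units), followed by CG17472 (0.18), CG9029 (0.24), CG18449 (0.24) and CR17567 (0.26). Of these, Acp53C14b and CG17472 were lower in the mean of mnn- males (-0.58 and -0.95), and CG9029 (-0.02), CG18449 (-0.14) and CR17567 (0.06) were near 0. Over the 5 males alone, among 387 probe sets that name a single gene, are none of the 9 and were at least 2 log2 units higher in males, the nearest were CG11112 (0.04), EbpII, an ejaculatory bulb protein (0.10), Ugt35B1 (0.11), CG1701 (0.13) and CG14034 (0.13). The profile has few points, and the members themselves lay 0.13 to 0.37 from their own mean over those 5 arrays. Over all 11 arrays the members lay 0.23 to 1.39 from their mean. Acp53C14b and CG17472 lay closer, but they were picked as the nearest of 12434 probe sets. Profiles were centred but not scaled, so distance over all 11 arrays depends largely on the size of the sex difference. The members farthest from the mean, Acp95EF (1.39) and Acp29AB (1.35), had the largest and smallest sex difference of the 9.

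Of the genes next to the 9 on the Release 6 assembly, 12 had a probe set and 4 of these were higher in non-mutant males, where 24.7% of all probe sets were: Acp53C14b, CG15617 (1.04, adjusted p = 2.5e-05), lectin-29Ca beside Acp29AB (2.22, adjusted p = 5.5e-05) and Spase22-23 beside Acp95EF (0.385, adjusted p = 0.017). Non2 beside Acp62F (-1.15, adjusted p = 2.27e-05) and mask beside Acp95EF, in 2 of its 4 probe sets (-0.69, adjusted p = 8.87e-04, and -0.46, adjusted p = 0.0148), were lower in males. The genes on either side of Acp63F, Scsalpha1 (0.045) and enc (-0.27), did not pass.

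Other male tract genes were set beside the 9. Of 9 probe sets listed as other accessory gland and seminal genes, 1 was called lower in mnn- males by limma. It was Acp26Aa, which encodes ovulin (-1.13 ± 0.11, adjusted p = 0.00356). The list's median was -0.43, with 7 of 9 below 0. SP, the sex peptide gene (0.04), and Acp26Ab (0.14) were the 2 above 0. The 7 include Acp1 (-0.33), an adult cuticle protein gene and not a gland gene. Without the wt male the list's median was -0.11. Sex peptide network genes, whose products act with sex peptide in the mated female, were below 0 for 8 of 8 (median -0.24). Ejaculatory duct, bulb and Mst57D genes were below 0 for 6 of 6 (median -0.28). By limma 0 were called in either list, with 3 and 0 members at an unadjusted p under 0.05. Testis genes were below 0 for 4 of 15 with a median of 0.16, and 0 passed by limma, with 1 at an unadjusted p under 0.05. Without the wt male, sex peptide network genes were below 0 for 8 of 8 (median -0.34). In that fit duct, bulb and Mst57D genes were below 0 for 5 of 6 (median -0.24) and testis genes for 4 of 15 (median 0.10). Of all probe sets 51.3% were below 0, and 44.7% without the wt male. Of the regulators listed for the gland, 3 had a probe set, and 0 passed by limma. The gene prd, needed for gland development, stood at 6.03 and 6.00 in wt and control males. It read 6.28, 6.22 and 6.15 in mnn- males X46_Y79, Y79_X46 and Y79_Y79, a difference of 0.20. The other 2, dve (-0.04) and dsx (-0.05), were below 0.

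In females the 9 genes were dim. No detection calls are among the values used here, so a low value sets no bound on absence, and the folds between the sexes are those of RMA values that include background. For 7 of the 9 the value lay at or below percentile 23.8 of brightness on every female array. Acp62F lay at percentiles 34.5 to 38.8, and Acp95EF at 24.8 to 74.4. Brightness differs between probe sets for reasons other than the amount of RNA. In mnn- against non-mutant females 0 of 9 passed by limma and 0 had an unadjusted p under 0.05 (background 0.00716% called lower), with differences from -0.06 for Acp32CD to 0.15 for Acp36DE. The mnn- difference in males minus that in females was below 0 for 9 of 9, as for 49.1% of all probe sets, with a median of -0.71 against 0.00, but 0 passed (0% of all probe sets, in either direction; 4 members at an unadjusted p under 0.05, against 637 probe sets). It was widest for Acp76A at -1.18 ± 0.22 (adjusted p = 0.992).

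Each female array was then searched for male transcripts. The heterozygous female X113_Y79 had the highest female value for 6 of the 9 genes, where it was highest for 23.3% of all probe sets and for 38.2% of the 432 probe sets, named or not, at least 2 log2 units higher in males. Acp95EF was 6.64 there, against 4.37 in wt, 4.25 in control, 4.66 in heterozygote X84_X46, and 4.32 and 4.59 in mnn- X46_Y79 and Y79_X46. The other 5 females lay within 0.41 of each other, and X113_Y79 was 2.28 above their median. Acp36DE followed at 3.34 against 2.51 to 2.81, Acp63F at 4.199 against 3.33 to 3.73, Acp53Ea at 3.09 against 2.51 to 2.72, Acp53C14a at 3.41 against 2.90 to 3.21 and Acp62F at 5.02 against 4.82 to 4.95. Acp32CD (3.63 against 3.28 to 3.65), Acp76A (2.90 against 2.75 to 2.98) and Acp29AB (2.47 against 2.42 to 2.66) lay within the range of the other females.

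The excess on that array was also set against the male signal. On a linear scale it came to 1.95% of the mean male intensity above the other females for Acp95EF, 2.09% for Acp36DE, 0.87% for Acp63F, 0.85% for Acp62F, 0.73% for Acp53Ea and 0.67% for Acp53C14a. It was 0.31% for Acp32CD, 0.24% for Acp76A and -1.54% for Acp29AB. On the other 5 female arrays the same measure ran from -2.86% (Acp76A in wt) to 4.04% (Acp29AB on mnn- X46_Y79) over the 9 genes. Those 2 genes had the lowest mean intensity in males. Gene by gene, X113_Y79 was above the other 5 for the 6 genes named first, as it held their highest female value. For each other array the baseline was the mean of the remaining females, X113_Y79 among them, which lowers its percentage for these genes. For these 6 genes the highest percentage on another female array was -0.29% for Acp95EF, 0.12% for Acp36DE and 0.06% for Acp63F. It was 0.30% for Acp62F, -0.005% for Acp53Ea and 0.13% for Acp53C14a. For Acp95EF the other arrays ran down to -0.48%. Other male transcripts were raised there too. Of 6 probe sets for ejaculatory duct, bulb and Mst57D genes 5 were above the median of the other females. Mst57Da (7.26), EbpII (6.55) and Ebp (5.49) were 2.17, 2.27 and 2.00 above it, or 2.36%, 1.79% and 1.82% of the male signal. EbpIII was 0.58 above it, 14.6% of the male signal. It was bright in all females, at 10.89 on X113_Y79 and 10.27 to 10.52 on the others, against 12.26 to 12.53 in males. Its percentage on the other female arrays, with X113_Y79 in their baseline, ran from -6.27% to 1.48%. Mst57Dc was 0.29 above the median of the other females and Gld stood at -0.04. Of 15 testis probe sets 14 were above that median, by at most 0.59 for Mst84Dd. Of 9 probe sets listed as other accessory gland and seminal genes 8 were, by at most 0.75 for SP. These 8 include the cuticle gene Acp1, at 0.12. Of all probe sets 50.6% were above that median on this array, as were 69.4% of the 432 higher in males. The median level of the testis list was 4.59 here, and 4.41 to 4.60 on the other female arrays. Sex peptide network genes were above it for 4 of 8, with a median of 0.00. On the other 5 female arrays the 9 genes deviated by -0.35 to 0.29 from the median of the rest. How male transcripts came to be on that array was not tested.

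**Figure D4:**
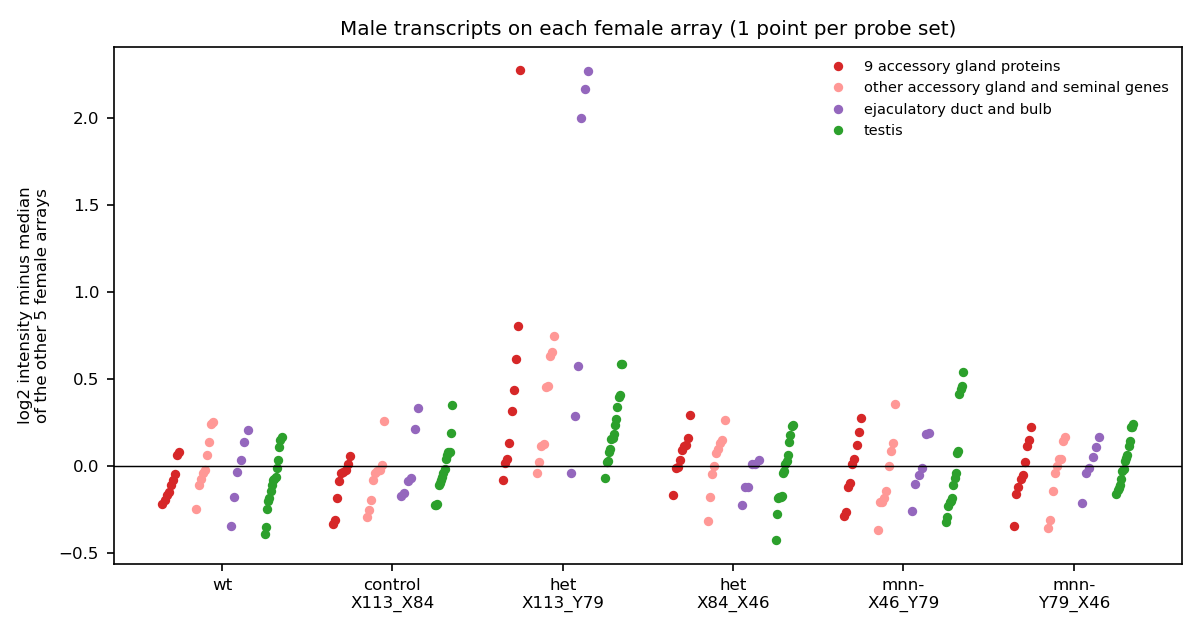
For each female array, the log2 intensity of every probe set of 4 gene lists minus the median of the other 5 female arrays. Each point is a probe set and colours mark the lists. The duct and bulb list includes Mst57D genes, and the list of other accessory gland genes includes the cuticle gene Acp1. On the heterozygous female X113_Y79, Acp95EF, Mst57Da, EbpII and Ebp lie at 2.00 to 2.28. On the other arrays the 9 genes lie between -0.35 and 0.29.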

How the data were processed

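The authors deposited 1 log2 intensity for each probe set and array. Per the submitters' processing notes these were made by RMA, with affy 2.12.0. No source used here says whether the arrays were summarised jointly. RMA scales arrays to 1 distribution and keeps background in dim values, which compresses folds of dim genes. Array medians ran from 5.464 to 5.533, and the number of arrays limits the precision. No 2 arrays were near-identical (r within a sex up to 0.9964). The 18 embryo arrays were not used here. Of 14010 probe sets 44 AFFX controls were left out; 12443 name a single gene, 327 several and 1196 none, from the platform annotation, and 12394 were matched to current genes.

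Samples were grouped by title. A fit in limma 3.58.1 (lmFit, eBayes; R 4.3.3) used all 11 arrays with a level per sex and genotype, and Benjamini-Hochberg adjustment over 13966 probe sets, threshold 0.05, two-sided. It was tested on simulated data. Alternatives were other scaling, a filter, trend and robust variance, leaving out stocks or single arrays, and males only. A test of control against wt males and a block by stock were added after seeing the data. The genes and lists were chosen with earlier results of these data known. All 9 genes are named, with the 5 nearest profiles and some genes of the other lists. Sex peptide network genes and yolk, eggshell and germ-plasm genes are given only as whole lists. A list of spermatheca and female tract genes is not described.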

Additional observations from a re-analysis of the deposited data

Results flagged for a closer look

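Values that stood far from the rest of their group were looked for in 32 sets of 6 female or 5 male arrays, each a gene of the 9 or the median of a marker list; a gap this wide arises by chance in about 1 of 20 sets. Among females the heterozygote X113_Y79 was far above the others for Acp95EF (6.64, a gap of 0.83 of the range), Acp53Ea (3.09, gap 0.65) and Acp36DE (3.34, gap 0.64). The same array was far above the others in the median of the ejaculatory duct, bulb and Mst57D genes (6.02, gap 0.85). The wt male was far above the other males in the median of the yolk, eggshell and germ-plasm genes (9.97, gap 0.97). The wt female was far above the other females in that median (12.51, gap 0.68).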

How the results depend on the processing

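No paired analysis was possible by replicate number because array numbers in the titles are not shared between groups. With the male and female arrays of the same stock paired (4 stocks, 8 arrays, chosen after seeing the data), 9 of 9 genes were higher in males in either background, and 0 of 9 passed for the difference between the sexes in the mnn- effect. The sex differences of all 9 genes kept their direction and passed in every alternative in which the gene was tested; a filter on dim probe sets left 4 genes, of which 4 passed in either background. For mnn- against non-mutant males, 0 of 9 became 1 with quantile normalization, with median centring, with trend and robust variance, with wt left out and with neither the wt male nor the heterozygous female X113_Y79 (the last chosen after seeing the data), and 2 with control left out and with wt and control as separate levels. Leaving out 1 array gave 0 to 1. The gene that passed was Acp76A in 9 of 19 alternatives (adjusted p from 1.39e-04 to 0.457) and Acp62F in 3 of 20 (0.0317 to 0.541). For the male minus female difference of the mnn- effect, 0 became 1 with control left out, and 0 to 1 leaving out 1 array. Calls over all probe sets for mnn- males ran from 1 to 187 against 4, and for the sex contrasts from 4529 to 8474.

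Signs turned for values that had not passed. With control left out, Acp32CD and Acp36DE in mnn- males became 0.099 and 0.401, in the difference between the sexes 0.059 and 0.257, and in mnn- females Acp29AB, Acp32CD and Acp62F became -0.005, 0.040 and 0.008. Leaving out 1 array, mnn- males gave -0.565 (without the wt male) to 0.099 (without the control male) for Acp32CD and -0.700 to 0.401 for Acp36DE, and the difference between the sexes -0.505 to 0.159 and -0.853 to 0.248 on the same arrays; it was 0.014 for Acp32CD without mnn- female X46_Y79. Acp29AB in Y79_Y79 ran from -0.885 (without X46_Y79) to 0.380 (without Y79_X46). In mnn- females Acp29AB ran from -0.080 without X46_Y79 to 0.156 without Y79_X46, Acp63F up to 0.171 and down to -0.232 on the same arrays, Acp32CD from -0.247 to 0.127 on them, and Acp62F from -0.086 without the wt female to 0.008 without the control female. The causes were not tested. Leaving out the Y79_Y79 male gives no value for its own comparison.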
